A study of Homo sapiens with 10 samples.

Results

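The 9 genes described here, DUSP2, DUSP4, DUSP5, DUSP6, DUSP10, SPRY2, SPRED1, SPRED2 and EGR1, encode phosphatases and feedback proteins of the RAS-ERK pathway. They were picked by name as members of this pathway, partly because DUSP5 was already known to be higher after HDAC3 knockdown in these same data, and they are 9 of the 19775 genes that the arrays measured with at least 1 probe set of a single gene symbol. RNA was profiled in MM.1S, an established human multiple myeloma line, on 10 Affymetrix 3' arrays in 5 groups of 2. Cells were transduced by lentivirus with shHDAC3#1 or shHDAC3#2, hairpins against the histone deacetylase HDAC3, with shDNMT1#1 or shDNMT1#2, hairpins against the maintenance DNA methyltransferase DNMT1, or with shLuc, a luciferase hairpin that served as the control of all of them. Every group, shLuc included, was infected with virus, and RNA was taken 48 h after infection. The work rests on 1 cell line with an activating RAS mutation, on pools of transduced cells and on 2 control arrays shared by all hairpins. Nothing in the labels says that the 2 arrays of a group stand for separate cultures, and the p-values therefore reflect the spread of these arrays alone, possibly a technical one.

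ERK is the last kinase of the RAS-RAF-MEK cascade, which carries growth factor and cytokine signals to the nucleus. Active ERK induces its own brakes: dual-specificity phosphatases (DUSPs) that remove its phosphates, and Sprouty and SPRED proteins that act near the receptor and RAS. Because their transcripts follow ERK activity, several of them are commonly read as signs of pathway output, and RAS mutations are frequent in myeloma.

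The targets were lower in the arrays of their own hairpins. HDAC3 signal was 5.52 to 5.97 in the 4 shHDAC3 arrays, against 7.26 and 6.61 in the shLuc arrays, on the log2 scale, where 1 unit is a doubling. DNMT1 signal was 5.76 to 6.27 in the 4 shDNMT1 arrays, against 8.49 and 8.33 in the shLuc arrays, and DNMT1 was also lower with the HDAC3 hairpins (log2 change -0.92, limma adjusted p = 1.6e-06). All 9 plasma cell markers lay above the median probe set (5.44), with JCHAIN highest at 12.91. Of the other cell types, 2 of 3 B cell markers (CD22 8.01, MS4A1 3.06), 2 of 5 T and NK cell markers, 1 of 3 myeloid markers (CD14 6.73, LYZ 3.94) and 3 of 5 stromal and epithelial markers (COL1A1 8.55, EPCAM 3.96) lay above it too. The plasma cell markers themselves moved with the knockdowns: 1 was called higher and 4 lower after HDAC3 knockdown, and 1 higher and 7 lower after DNMT1 knockdown, among them TNFRSF17 (-1.06) and PRDM1 (-0.73) after DNMT1 knockdown. Their part in the results that follow was not tested. None of the measured markers of B, T and NK, myeloid or stromal and epithelial cells was called in either knockdown against shLuc. The shLuc arrays had the widest spread of values over all probe sets (SD 1.94 and 1.93, against 1.84 to 1.92 in the knockdown arrays), and the 3' minus 5' signal of ACTB, a sign of RNA quality, averaged 1.00 in shHDAC3#1 and 0.71 to 0.74 in the other groups.

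By their brightest probe sets, DUSP5 was higher than in shLuc with every hairpin, DUSP4 with 3 of the 4, and DUSP6 and SPRED1 were lower with the #2 hairpin of each target, while with the #1 hairpins neither passed the test. Averaged over both hairpins of a target, DUSP5 was higher after HDAC3 knockdown, and of the other 8 genes none was called higher and 2 lower (DUSP6 and SPRED1), where 3.96% of all genes were called higher and 15.3% lower. After DNMT1 knockdown 3 were called higher (DUSP2, DUSP4 and DUSP5) and the same 2 lower, where 6.66% of all genes were called higher and 13.5% lower. The threshold for a call was 0.05 on limma's p after Benjamini-Hochberg adjustment over all 19775 genes. All 9 genes entered the test, since no filter on low values was used, and 6 of their 9 brightest probe sets lay above the median probe set (DUSP10, SPRY2 and EGR1 below it). The level of DUSP5 after HDAC3 knockdown was known when the genes were chosen, so its values in the HDAC3 arrays are given as a description, with no test, and nothing is read from a count that includes them. Its test after DNMT1 knockdown uses the same shLuc arrays, so it is not independent of that choice. The median log2 change of the 9 genes was 0.08 in HDAC3 knockdown, beside 0.05 over all genes, and 0.18 in DNMT1 knockdown, beside 0.07 over all genes. Between HDAC3 knockdown and shLuc, the groups of arrays overlapped for all 8 genes other than DUSP5, where 37.9% of all genes did not overlap. Those of DUSP5 did not overlap, a description only, given its choice. Between DNMT1 knockdown and shLuc the groups of arrays did not overlap for 3 of the 9 (DUSP2, DUSP4 and DUSP5), where the figure for all genes was 34.1%. The 2 comparisons share the control arrays, so their results are not independent of each other. The hairpin was also treated as a random block, with 3 groups in place of 5. In that fit limma called none of the 9 genes in any comparison of knockdowns. Of all genes, 0.369% were called after HDAC3 knockdown, 0.157% after DNMT1 knockdown and 0.0303% between the knockdowns.

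**Figure D1:**
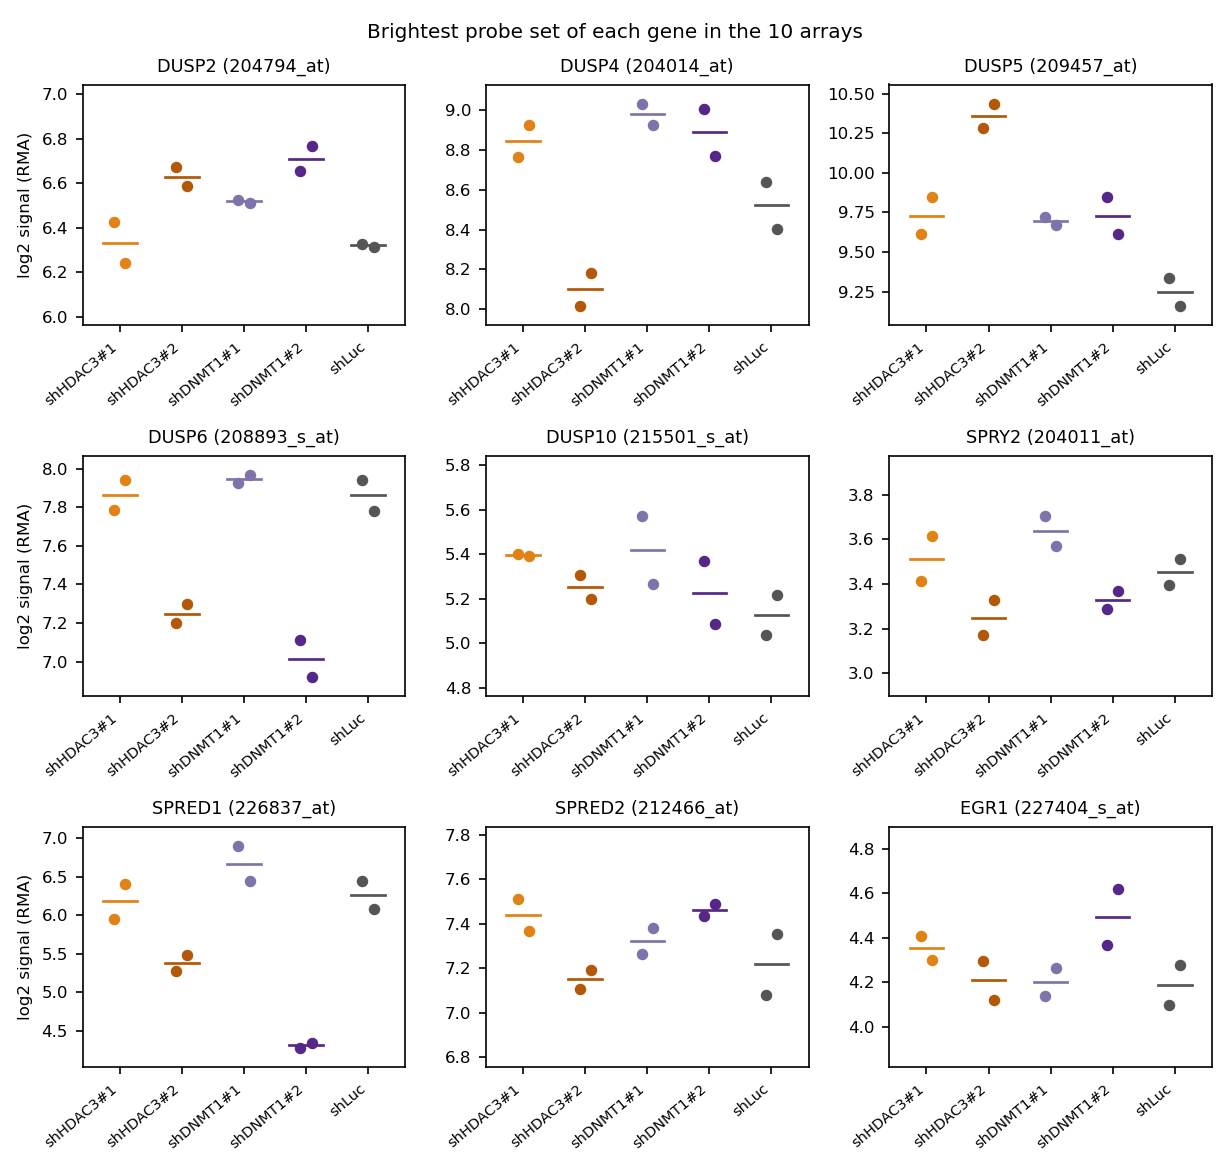
Log2 signal of the brightest probe set of each of the 9 genes in every array (points) with the group mean (line). The left axes cover different ranges and are not comparable between genes. DUSP5 lies above both shLuc arrays in all 8 knockdown arrays, and DUSP6 and SPRED1 are low in shHDAC3#2 and shDNMT1#2.

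DUSP5, a nuclear phosphatase that is specific for ERK, had 1 probe set (209457_at), at the 98.8th percentile of all probe sets. Its log2 signal was 9.61 and 9.85 with shHDAC3#1, 10.28 and 10.44 with shHDAC3#2, 9.72 and 9.67 with shDNMT1#1 and 9.85 and 9.61 with shDNMT1#2, against 9.33 and 9.16 with shLuc. All 8 knockdown arrays lay above both shLuc arrays, and the 2 shHDAC3#2 arrays lay above all others. The difference from shLuc was 0.80 ± 0.09 (log2 ± SE, 1.74-fold) over the 4 HDAC3 knockdown arrays, 0.48 with shHDAC3#1 and 1.11 with shHDAC3#2. Over the 4 DNMT1 knockdown arrays it was 0.47 ± 0.09 (1.38-fold, limma adjusted p = 0.00066), 0.45 with shDNMT1#1 (adjusted p = 0.0072) and 0.48 with shDNMT1#2 (adjusted p = 0.0015). These tests reuse the shLuc arrays that entered the choice of DUSP5, so they are no independent evidence of a rise. Between the DNMT1 hairpins, shDNMT1#2 minus shDNMT1#1 was 0.03, with a 95% interval from -0.18 to 0.25, although a further quantile normalization of the arrays moved it to 0.28 (adjusted p = 0.01). Between the HDAC3 hairpins, shHDAC3#2 minus shHDAC3#1 was 0.63 ± 0.10. In bulk RNA, more cells with the transcript and more transcript per cell cannot be told apart, for this gene or any other. With the hairpin as a random block the adjusted p of DUSP5 in DNMT1 knockdown was 0.37.

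DUSP4, another inducible nuclear phosphatase, which acts on ERK and also on JNK, gave opposite results with the HDAC3 hairpins. The log2 signal of its brightest probe set (204014_at) was 8.77 and 8.93 with shHDAC3#1, 8.02 and 8.18 with shHDAC3#2, 9.03 and 8.92 with shDNMT1#1 and 9.01 and 8.77 with shDNMT1#2, against 8.64 and 8.40 with shLuc. The shHDAC3#2 arrays lay below both shLuc arrays and the 6 arrays of the other hairpins lay above both. Against shLuc the change was 0.32 with shHDAC3#1 (limma adjusted p = 0.034) and -0.42 with shHDAC3#2 (adjusted p = 0.012), and shHDAC3#2 minus shHDAC3#1 was -0.75 ± 0.11 (adjusted p = 3.6e-05). The mean over the HDAC3 knockdown arrays, -0.05 ± 0.09 (adjusted p = 0.74), therefore describes neither hairpin. DUSP4 rose after DNMT1 knockdown by 0.41 ± 0.09 (1.33-fold, adjusted p = 0.0032), with 0.46 for shDNMT1#1 (adjusted p = 0.0092) and 0.37 for shDNMT1#2 (adjusted p = 0.017). Without shLuc replicate 2 the change after DNMT1 knockdown was 0.29 and was no longer called (adjusted p = 0.084), and with the hairpin as a random block the adjusted p was 0.45. The other 2 probe sets gave the same sign with each hairpin: their levels correlated with the brightest one at Pearson's r of 0.99 and 0.98 over the 10 arrays, and shHDAC3#2 minus shHDAC3#1 was -0.82 for 204015_s_at and -0.56 for 226034_at. In a limma fit of every probe set, the rise with shHDAC3#1 passed the test for 204015_s_at (0.34, adjusted p = 0.029). It did not pass for 226034_at (0.23, adjusted p = 0.12).

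DUSP2, a nuclear phosphatase best known from activated lymphocytes, had log2 signals of 6.43 and 6.24 with shHDAC3#1, 6.67 and 6.59 with shHDAC3#2, 6.53 and 6.51 with shDNMT1#1 and 6.65 and 6.77 with shDNMT1#2, against 6.33 and 6.32 with shLuc. Of the knockdown arrays, 1 of shHDAC3#1 lay below the control arrays and the other 7 lay above them. The rise after DNMT1 knockdown was small, at 0.29 ± 0.10 (1.23-fold, limma adjusted p = 0.034). It was 0.39 with shDNMT1#2 (adjusted p = 0.013), and 0.20 with shDNMT1#1, which did not pass the test. The call of DUSP2 was lost when each array was centred on its median (0.24, adjusted p = 0.086), with array weights (adjusted p = 0.051), with only the arrays of the comparison in the fit (adjusted p = 0.063), with the SD of each array as a covariate (0.07, adjusted p = 0.97) and with the hairpin as a random block (adjusted p = 0.4). It was also lost without shLuc replicate 1 (adjusted p = 0.2), without shLuc replicate 2 (adjusted p = 0.099) and without shDNMT1#2 replicate 2 (adjusted p = 0.087). The change after HDAC3 knockdown was 0.16, with a 95% interval from -0.04 to 0.36 (adjusted p = 0.24).

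DUSP6, the cytoplasmic ERK phosphatase whose transcript is a common readout of ERK activity, was lower with both #2 hairpins. The log2 signal of its brightest probe set (208893_s_at) was 7.78 and 7.94 with shHDAC3#1, 7.20 and 7.30 with shHDAC3#2, 7.93 and 7.97 with shDNMT1#1 and 7.11 and 6.92 with shDNMT1#2, against 7.94 and 7.78 with shLuc. All 4 arrays of the #2 hairpins lay below all 4 arrays of the #1 hairpins and both shLuc arrays, while the #1 arrays overlapped or lay near the shLuc arrays. The change against shLuc was -0.61 ± 0.11 with shHDAC3#2 (limma adjusted p = 0.00031) and -0.85 ± 0.11 with shDNMT1#2 (adjusted p = 3.5e-06), and 0.00 with shHDAC3#1 and 0.09 with shDNMT1#1. The difference between hairpins of 1 target passed the test for both targets, at -0.61 ± 0.11 for shHDAC3#2 minus shHDAC3#1 (adjusted p = 0.00024) and -0.93 ± 0.11 for shDNMT1#2 minus shDNMT1#1 (adjusted p = 1.9e-06). The level with shHDAC3#2 was 0.23 above that with shDNMT1#2, which did not pass the test (adjusted p = 0.19).

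The averaged changes of DUSP6, -0.31 ± 0.09 after HDAC3 knockdown (limma adjusted p = 0.022) and -0.38 ± 0.09 after DNMT1 knockdown (adjusted p = 0.005), are means of 1 hairpin with a fall and 1 without. The HDAC3 call was lost after quantile normalization (-0.23, adjusted p = 0.065), without shLuc replicate 1 (-0.22, adjusted p = 0.35), without shHDAC3#1 replicate 1 (adjusted p = 0.094) and without shHDAC3#2 replicate 1 (adjusted p = 0.077), and the DNMT1 call without shLuc replicate 1 (-0.30, adjusted p = 0.16). With the SD of each array as a covariate the changes were -0.01 and -0.07, and with the hairpin as a random block the adjusted p was 0.65 in HDAC3 knockdown and 0.57 in DNMT1 knockdown.

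The dimmer probe sets of DUSP6 showed larger falls with the same hairpins. The log2 signal of 208892_s_at was 7.44 and 7.50 with shHDAC3#1, 5.17 and 5.45 with shHDAC3#2, 7.82 and 7.49 with shDNMT1#1 and 5.16 and 5.40 with shDNMT1#2, against 7.89 and 7.68 with shLuc. Its change, in a fit of every probe set, was -2.48 with shHDAC3#2 and -2.51 with shDNMT1#2, against -0.32 with shHDAC3#1 and -0.13 with shDNMT1#1. For 208891_at the changes were -1.68 with shHDAC3#2 and -1.34 with shDNMT1#2, against -0.18 with shHDAC3#1 and -0.01 with shDNMT1#1. In all 3 probe sets both #2 hairpins lay below both #1 hairpins, and the falls were smallest in the brightest one.

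DUSP10, a phosphatase that prefers JNK and p38 over ERK, so that the name ERK phosphatase fits it less well, lay below the median probe set. The log2 signal of 215501_s_at was 5.40 and 5.39 with shHDAC3#1, 5.31 and 5.20 with shHDAC3#2, 5.57 and 5.27 with shDNMT1#1 and 5.37 and 5.09 with shDNMT1#2, against 5.04 and 5.22 with shLuc. The arrays of each knockdown, taken over both hairpins, overlapped those of shLuc, while shHDAC3#1 and shDNMT1#1 lay above both shLuc arrays. The change was 0.20 after either knockdown (limma adjusted p = 0.24 in both). Its 95% interval ran from -0.05 to 0.44 after HDAC3 knockdown and was nearly the same after DNMT1 knockdown. The other probe set of DUSP10 averaged 4.24 and changed by -0.01 in both comparisons.

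SPRED1, a membrane protein that brings the RAS inactivator neurofibromin to RAS, had the lowest level with shDNMT1#2. The log2 signal of its brightest probe set (226837_at) was 5.95 and 6.41 with shHDAC3#1, 5.28 and 5.49 with shHDAC3#2, 6.90 and 6.44 with shDNMT1#1 and 4.28 and 4.34 with shDNMT1#2, against 6.44 and 6.07 with shLuc. The shDNMT1#2 arrays were the lowest, the shHDAC3#2 arrays came next, and the arrays of both #1 hairpins lay around the shLuc arrays. With shDNMT1#2 the change was -1.95 ± 0.16, or 25.9% of the shLuc signal (limma adjusted p = 1.6e-08), and with shHDAC3#2 it was -0.88 ± 0.16 (adjusted p = 0.00076). It was -0.08 with shHDAC3#1 (adjusted p = 0.75) and 0.41 with shDNMT1#1 (adjusted p = 0.15). The hairpins of each target differed, by -2.36 ± 0.16 for shDNMT1#2 minus shDNMT1#1 (5.13-fold, adjusted p = 1.9e-09) and by -0.80 ± 0.16 for shHDAC3#2 minus shHDAC3#1 (adjusted p = 0.0015). The difference between the HDAC3 hairpins was no longer called without shHDAC3#1 replicate 2 (-0.57, adjusted p = 0.07). SPRED1 also differed between the #2 hairpins, with shHDAC3#2 1.07 above shDNMT1#2 (adjusted p = 0.00012).

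Averaged over both hairpins, SPRED1 fell by 0.77 ± 0.14 on the log2 scale after DNMT1 knockdown (limma adjusted p = 0.00045) and by 0.48 ± 0.14 after HDAC3 knockdown (adjusted p = 0.022). The DNMT1 call was lost without shLuc replicate 1 (-0.58, adjusted p = 0.074). The HDAC3 call was lost without shLuc replicate 1 (-0.29, adjusted p = 0.49), without shHDAC3#1 replicate 1 (-0.36, adjusted p = 0.11) and without shHDAC3#2 replicate 1 (-0.43, adjusted p = 0.074). With the SD of each array as a covariate the sign turned, to 0.33 in HDAC3 knockdown (adjusted p = 0.98) and 0.09 in DNMT1 knockdown (adjusted p = 0.97), and with the hairpin as a random block the adjusted p was 0.74 in HDAC3 knockdown and 0.6 in DNMT1 knockdown. The second probe set, 235074_at, was lower than shLuc with all hairpins: its change was -0.56 with shHDAC3#1, -0.996 with shHDAC3#2, -0.36 with shDNMT1#1 and -1.15 with shDNMT1#2, of which the change with shDNMT1#1 did not pass the test (adjusted p = 0.13). The third, 244439_at, averaged 3.82, near the dim end of the array, and its change was -0.15 after HDAC3 knockdown and 0.05 after DNMT1 knockdown, neither of which passed the test, while shDNMT1#2 minus shDNMT1#1 was -0.77 (adjusted p = 0.0028).

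SPRED2, the close relative of SPRED1, gave probe sets that disagreed. The log2 signal of the brightest (212466_at) was 7.51 and 7.37 with shHDAC3#1, 7.11 and 7.19 with shHDAC3#2, 7.26 and 7.38 with shDNMT1#1 and 7.44 and 7.49 with shDNMT1#2, against 7.08 and 7.35 with shLuc. The arrays of each knockdown, taken over both hairpins, overlapped those of shLuc, while shHDAC3#1 and shDNMT1#2 lay above both shLuc arrays. The changes were 0.08 after HDAC3 knockdown (limma adjusted p = 0.58) and 0.18 after DNMT1 knockdown (adjusted p = 0.2). The second probe set (212458_at) had log2 signals of 6.27 and 6.30 with shHDAC3#1, 4.63 and 4.93 with shHDAC3#2, 6.34 and 6.43 with shDNMT1#1 and 6.13 and 6.17 with shDNMT1#2, against 7.13 and 6.76 with shLuc. All 8 knockdown arrays of 212458_at lay below both shLuc arrays, and those of shHDAC3#2 lay lowest. Its change was -1.41 ± 0.11 after HDAC3 knockdown (adjusted p = 6.8e-08, over every probe set) and -0.68 after DNMT1 knockdown (adjusted p = 0.00031), and shHDAC3#2 minus shHDAC3#1 was -1.50 (adjusted p = 1.2e-07). The levels of the 2 probe sets correlated at Pearson's r of 0.29 over the 10 arrays, and the third (214026_s_at) averaged 3.15, so the direction of SPRED2 depends on the probe set chosen. With the mean of its probe sets the change after HDAC3 knockdown was -0.41 (adjusted p = 0.0014), and DNMT1 knockdown minus HDAC3 knockdown was 0.33 (adjusted p = 0.003).

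**Figure D2:**
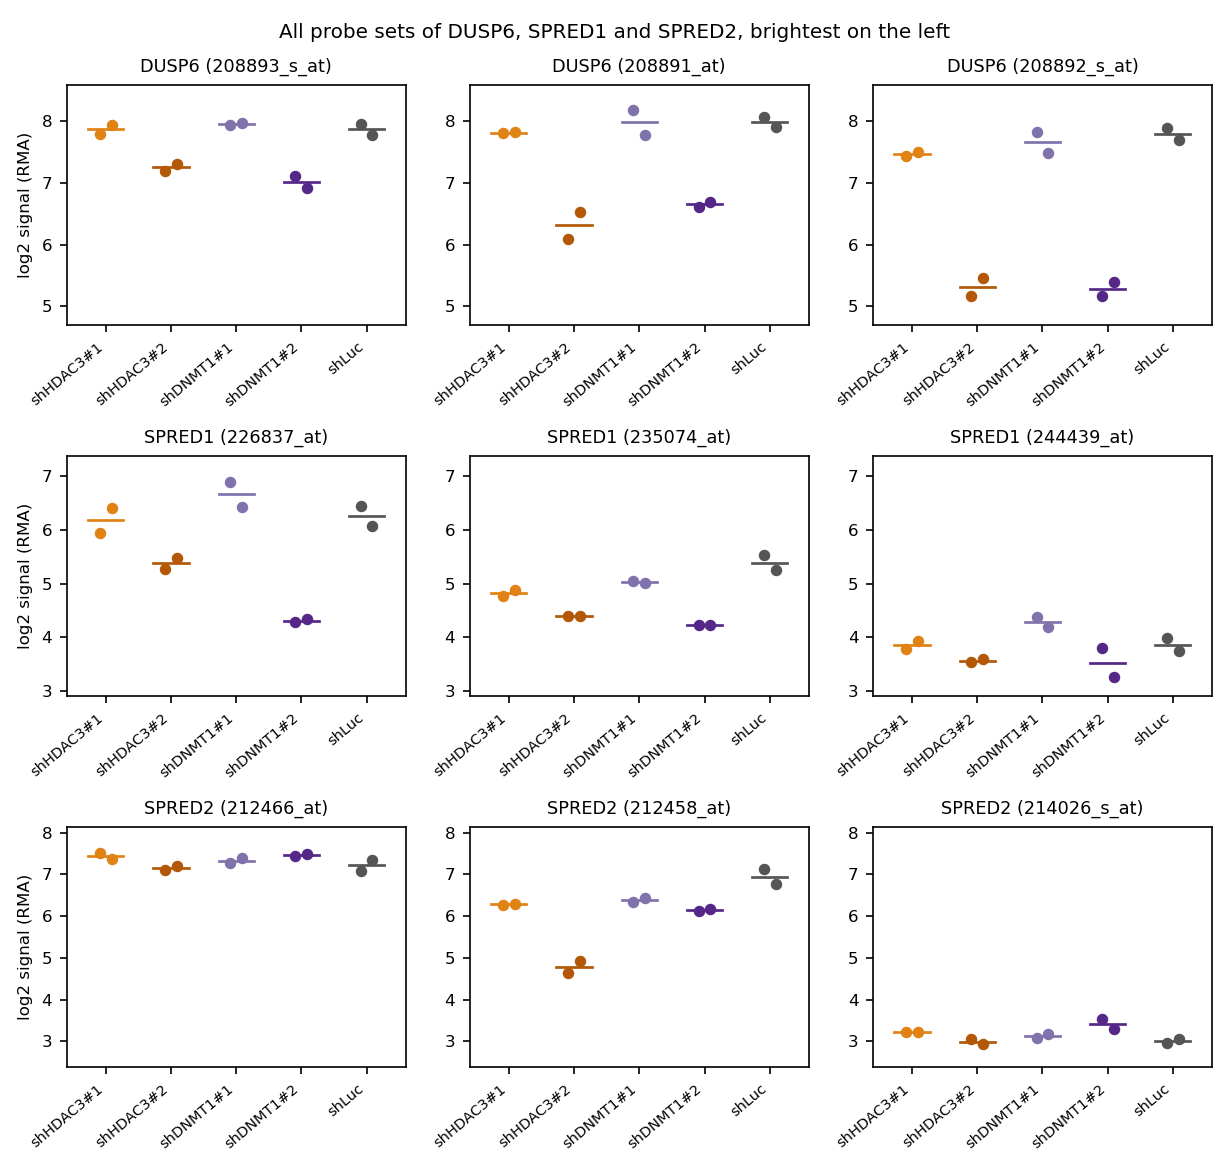
Log2 signal of every probe set of DUSP6, SPRED1 and SPRED2 in each array (points) with the group mean (line). The 3 DUSP6 probe sets are low with shHDAC3#2 and shDNMT1#2 alike. For SPRED2, 212458_at is below shLuc with every hairpin and lowest with shHDAC3#2, while the knockdown arrays of 212466_at overlap the shLuc arrays.

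SPRY2, a Sprouty protein that dampens signalling from receptor tyrosine kinases to RAS, was near the dim end of the array, at the 17.8th percentile. Its log2 signal (204011_at) was 3.41 and 3.62 with shHDAC3#1, 3.17 and 3.33 with shHDAC3#2, 3.70 and 3.57 with shDNMT1#1 and 3.29 and 3.37 with shDNMT1#2, against 3.39 and 3.51 with shLuc. Both #2 hairpins had the lowest values, but the differences between hairpins, -0.27 for shHDAC3#2 minus shHDAC3#1 (limma adjusted p = 0.2) and -0.31 for shDNMT1#2 minus shDNMT1#1 (adjusted p = 0.12), did not pass the test. The change was -0.07 after HDAC3 knockdown, with a 95% interval from -0.29 to 0.15, and 0.03 after DNMT1 knockdown, with one from -0.19 to 0.25. The values come with no detection call, so how far this signal lies above background was not tested.

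EGR1, an immediate early transcription factor that ERK induces through the factors ELK1 and SRF, was also dim. SRF binds the CArG box, and the 250 bases before the start of EGR1 in RefSeq (GRCh38.p14, chr5:138465229-138465478, + strand) are shown because they hold 2 of these boxes, set in capitals, at 105 and 83 bases before the start. The motif is symmetric, so a search of either strand covers both, the 2 copies do not overlap, and 1.16% of the 35116 promoter windows of this length in the RefSeq table hold at least 1 (11 windows hold 2 or more). A match of letters is a description and shows no binding here.

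EGR1: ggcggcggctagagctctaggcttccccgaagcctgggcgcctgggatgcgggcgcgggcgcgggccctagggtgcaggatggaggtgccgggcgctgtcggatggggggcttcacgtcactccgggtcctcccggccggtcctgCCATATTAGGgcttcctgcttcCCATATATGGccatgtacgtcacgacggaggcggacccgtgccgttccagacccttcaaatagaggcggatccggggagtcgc

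The log2 signal of its brightest probe set (227404_s_at) was 4.41 and 4.30 with shHDAC3#1, 4.30 and 4.12 with shHDAC3#2, 4.14 and 4.26 with shDNMT1#1 and 4.37 and 4.62 with shDNMT1#2, against 4.10 and 4.28 with shLuc. The arrays of each knockdown, taken over both hairpins, overlapped those of shLuc, while shHDAC3#1 and shDNMT1#2 lay above both shLuc arrays. The change was 0.09 after HDAC3 knockdown (limma adjusted p = 0.58, 95% interval from -0.14 to 0.33) and 0.16 after DNMT1 knockdown (adjusted p = 0.33, 95% interval from -0.08 to 0.39). All 3 probe sets of EGR1 lay below the median probe set, and all carry names of the kind that can cross-hybridize. No change of EGR1 was detected with its brightest probe set.

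When DNMT1 knockdown was set against HDAC3 knockdown, 1 of the 8 genes other than DUSP5 was called, where 9.59% of all genes were. It was DUSP4, higher with DNMT1 knockdown by 0.46 ± 0.08 (limma adjusted p = 0.00029), and DUSP5 was lower by 0.33 ± 0.07, a value given with no test. No gene of the 9 had DNMT1 knockdown arrays that were separate from the HDAC3 knockdown arrays, where 5.20% of all genes did. The DUSP4 difference came with opposite HDAC3 hairpins: shDNMT1#1 and shDNMT1#2 lay 0.88 and 0.79 above shHDAC3#2 and 0.13 and 0.04 above shHDAC3#1. The DUSP5 difference was likewise that of shHDAC3#2, 0.66 above shDNMT1#1 and 0.63 above shDNMT1#2, while shHDAC3#1 lay 0.03 above shDNMT1#1 and level with shDNMT1#2. The SPRED1 difference of -0.29 (adjusted p = 0.13) passed the test without shHDAC3#1 replicate 1 (-0.41, adjusted p = 0.047) or without shDNMT1#1 replicate 1 (-0.41, adjusted p = 0.023).

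The hairpins of 1 target were also set against each other. Between shHDAC3#2 and shHDAC3#1, 3 of the 8 genes other than DUSP5 were called (DUSP4, DUSP6 and SPRED1, all lower), where 12.6% of all genes were called. Between shDNMT1#2 and shDNMT1#1, 2 of all 9 were called (DUSP6 and SPRED1, both lower), where the share of all genes was 12.0%. Against shLuc, and again leaving DUSP5 aside, 1 of 8 was called with shHDAC3#1 (DUSP4, higher), where 24.4% of all genes were called. With shHDAC3#2, 3 of the 8 were called (DUSP4, DUSP6 and SPRED1, all lower), where 10.9% of all genes were. With shDNMT1#1, 2 of all 9 were called (DUSP4 and DUSP5, both higher), where 8.15% of all genes were. With shDNMT1#2, 5 of the 9 were called (DUSP2, DUSP4 and DUSP5 higher, and DUSP6 and SPRED1 lower), where 26.8% of all genes were. These 4 comparisons share the shLuc arrays. Those arrays also entered the choice of DUSP5, so its calls with the DNMT1 hairpins are not independent of that choice. The higher ACTB 3' minus 5' signal of shHDAC3#1 stands beside the HDAC3 hairpin differences. Its part in them was not tested.

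**Figure D3:**
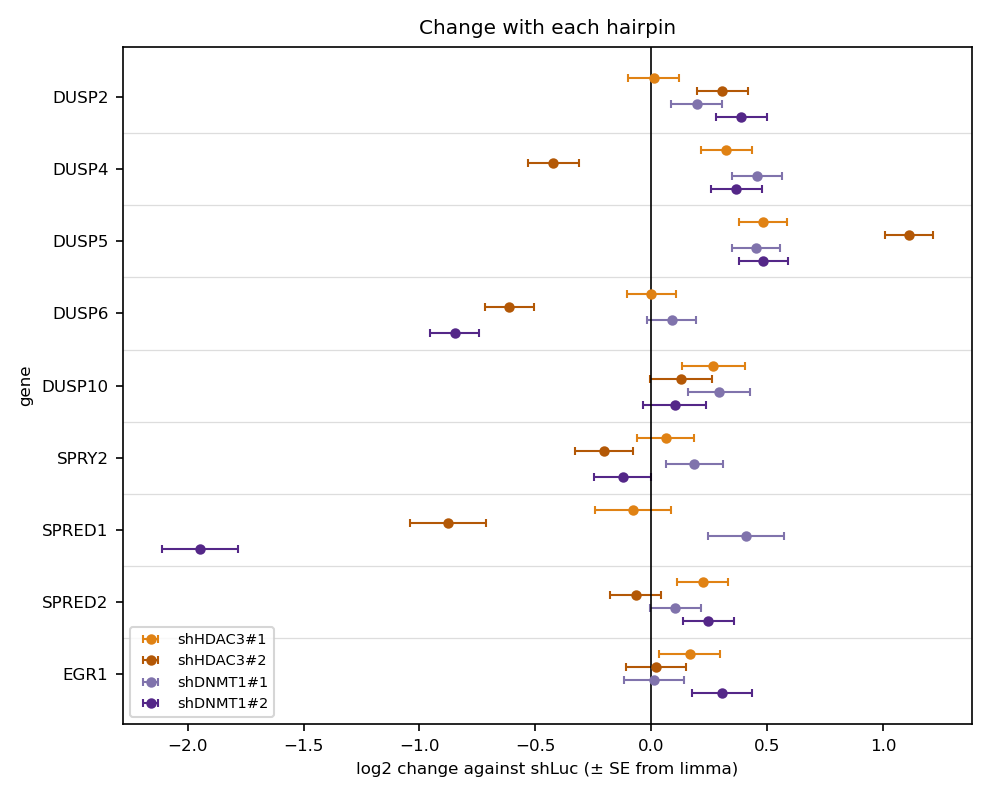
Log2 change of the brightest probe set of each gene with each hairpin against shLuc, with the standard error from limma (2 arrays per group). DUSP5 is right of 0 with all 4 hairpins, DUSP4 is left of 0 with shHDAC3#2 alone, and DUSP6 and SPRED1 lie farthest left with shHDAC3#2 and shDNMT1#2.

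DUSP6 and SPRED1 varied together over the arrays. Their log2 signals had a Pearson's r of 0.95 over the 10 arrays, a description of 5 groups of 2 that share a control. SPRY2 followed both more loosely (r of 0.76 with DUSP6 and 0.74 with SPRED1), and DUSP2 ran the opposite way (r of -0.84 with DUSP6 and -0.74 with SPRED1). The 250 bases before the starts of DUSP6 (chr12:89352502-89352751, - strand) and SPRED1 (chr15:38252586-38252835, + strand) in RefSeq GRCh38.p14 are shown because these genes varied together and because DNMT1 methylates the dinucleotide CG, set in capitals.

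DUSP6: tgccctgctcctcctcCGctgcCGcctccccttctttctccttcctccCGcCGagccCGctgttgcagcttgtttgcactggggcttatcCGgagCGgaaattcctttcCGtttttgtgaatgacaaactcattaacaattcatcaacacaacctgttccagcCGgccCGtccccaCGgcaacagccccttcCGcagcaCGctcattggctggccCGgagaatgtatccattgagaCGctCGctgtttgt

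SPRED1: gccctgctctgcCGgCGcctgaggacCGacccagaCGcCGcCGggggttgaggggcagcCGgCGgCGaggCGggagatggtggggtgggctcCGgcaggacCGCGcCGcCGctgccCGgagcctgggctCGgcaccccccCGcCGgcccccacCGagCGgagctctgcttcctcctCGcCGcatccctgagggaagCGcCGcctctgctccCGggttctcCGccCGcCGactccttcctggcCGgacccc

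The DUSP6 window holds 16 CG, and 41.0% of all windows in the table hold as many or more. The SPRED1 window holds 30, which 12.4% of windows reach, and the median window holds 11. CG reads the same on both strands and 93.9% of windows hold at least 1, so its presence sets neither gene apart, and methylation was not measured. The promoter table matched 7 of the 9 genes with 11 windows.

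The genes whose levels followed these most closely over the 10 arrays were sought among 9804 other genes with a brightest probe set in the upper part of the array. For SPRED1 they were MXRA7 (Pearson's r 0.99, Spearman's rho 0.94) and JPT1 (r 0.97, rho 0.95). For DUSP6 they were VDAC3 (r 0.98, rho 0.85) and ACTB (r 0.98, rho 0.96). RPL34 (r 0.95, rho 0.96) and MFF (r 0.92, rho 0.88) were closest to DUSP5, and CADM1 (r 0.94, rho 0.92) and PFN2 (r 0.93, rho 0.87) to DUSP4. DUSP2 was closest to JMJD4 and GATC, SPRED2 to TTLL5 and RAX, EGR1 to CNKSR1 and STUM, SPRY2 to MIR1244-3 and UBALD2, and DUSP10 to ZDHHC18 and PAPSS2, with r from 0.88 to 0.95. With so few arrays and so many genes searched, these values only describe likeness.

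Among 89 other measured genes in 7 lists of the pathway, calls were more often lower than higher, as they were over all genes. After HDAC3 knockdown 3 were called higher and 21 lower (27% of the 89, where 19.2% of all genes were called), and the median log2 change was -0.03. After DNMT1 knockdown 8 were called higher and 23 lower (34.8%, where 20.2% of all genes were called), and the median was 0.05. The counts of each list below stand beside the same shares of all genes, 3.96% higher and 15.3% lower after HDAC3 knockdown and 6.66% higher and 13.5% lower after DNMT1 knockdown. The changes below are means over both hairpins of a target, and for some of these genes the hairpins differed. Of 8 other DUSPs, only DUSP22, a small JNK pathway phosphatase, was called, lower by 0.27 on the log2 scale after HDAC3 knockdown (limma adjusted p = 0.024) and by 0.40 after DNMT1 knockdown (adjusted p = 0.0013). Of 15 other feedback inhibitors, 4 were called lower after HDAC3 knockdown, and 3 higher and 3 lower after DNMT1 knockdown. Among them RASA2, a GTPase activator that switches RAS off, changed by -0.56 with HDAC3 knockdown and -0.79 with DNMT1 knockdown. NAB1, a corepressor of EGR proteins, changed by -0.86 with HDAC3 knockdown and -0.75 with DNMT1 knockdown, and LRIG1, which promotes loss of receptor tyrosine kinases, by -0.46 and -0.66 in the same order.

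Of 10 receptors, 1 was called higher and 3 lower after HDAC3 knockdown, and 1 higher and 4 lower after DNMT1 knockdown. IL6ST, the signalling chain of the interleukin-6 receptor on which many myeloma cells depend, changed by -1.37 with DNMT1 knockdown (limma adjusted p = 3.9e-09) and -0.68 with HDAC3 knockdown (adjusted p = 2.1e-05). IGF1R, the insulin-like growth factor receptor, was the one called higher, at 0.66 with DNMT1 knockdown (adjusted p = 3.8e-05) and 0.57 with HDAC3 knockdown (adjusted p = 0.00015). The chemokine receptor CXCR4 changed by -0.69 with DNMT1 knockdown and by -0.49 with HDAC3 knockdown. Each of these means covers hairpins that differed, at -1.15 for shDNMT1#2 minus shDNMT1#1 and 0.79 for shHDAC3#2 minus shHDAC3#1. CXCR4 was near shLuc (8.10 and 7.98) with shDNMT1#1 (8.14 and 7.71) and with shHDAC3#2 (7.75 and 8.14). Of 11 adaptors and RAS proteins, 3 were called lower in each comparison and none higher. PTPN11, the phosphatase SHP2 that passes receptor signals to RAS, changed by -1.29 with DNMT1 knockdown (adjusted p = 1.1e-08) and -0.49 with HDAC3 knockdown (adjusted p = 0.001). The adaptors SHC1 (-0.44) and GRB2 (-0.29) were called lower with HDAC3 knockdown, and the RAS relative RRAS2 (-1.19) and the RAS activator SOS1 (-0.28) with DNMT1 knockdown. RRAS2 was at 4.30 and 4.46 with shDNMT1#2 and at 6.51 and 6.15 with shDNMT1#1, against 6.71 and 6.38 with shLuc.

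Of 12 genes of the kinase cascade, 1 was called higher and 2 lower after HDAC3 knockdown, and 2 higher and 3 lower after DNMT1 knockdown. MAP2K1, which encodes the ERK kinase MEK1, changed by -0.52 with DNMT1 knockdown and -0.28 with HDAC3 knockdown, and the MEK scaffold partner LAMTOR3 by -0.53 and -0.65 in the same order. The hairpins differed for MAP2K1 in the direction of DUSP6 and SPRED1. The difference was -0.36 for shHDAC3#2 minus shHDAC3#1 (limma adjusted p = 0.014) and -0.54 for shDNMT1#2 minus shDNMT1#1 (adjusted p = 0.00052). MAP2K1 was at 8.35 and 8.22 with shHDAC3#1 and 8.17 and 8.10 with shDNMT1#1, against 8.46 and 8.32 with shLuc. MKNK2, a kinase downstream of ERK, changed by -0.59 with DNMT1 knockdown, and RPS6KA2, a ribosomal S6 kinase, by 0.27 with HDAC3 knockdown. MAPK3, which encodes ERK1, changed by -0.06 in both comparisons (limma adjusted p = 0.64 with HDAC3 knockdown and 0.63 with DNMT1 knockdown). Of 10 ETS and SRF factors none was called after HDAC3 knockdown, and 2 were called higher and 2 lower after DNMT1 knockdown, among them ELK4 (-0.91), ELK3 (-0.62) and ETS1 (0.39). ELK4 was at 6.10 and 6.19 with shDNMT1#2 and at 8.19 and 7.91 with shDNMT1#1, against 8.09 and 7.92 with shLuc.

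Of 23 immediate early genes and other ERK targets, 1 was called higher and 8 lower after HDAC3 knockdown, and none higher and 7 lower after DNMT1 knockdown. PHLDA1, an ERK-induced gene, had the largest fall, at -1.47 ± 0.13 with HDAC3 knockdown (limma adjusted p = 6.4e-08) and -1.13 ± 0.13 with DNMT1 knockdown (adjusted p = 1.8e-06). JUN, a subunit of the AP-1 factor, changed by -1.31 with HDAC3 knockdown and -0.58 with DNMT1 knockdown, and TRIB1, a pseudokinase, by -0.95 and -0.74 in the same order. Of PHLDA1, JUN and TRIB1, only PHLDA1 differed between hairpins in the direction of DUSP6 and SPRED1. Its difference was -0.71 for shHDAC3#2 minus shHDAC3#1 (adjusted p = 0.0017) and -1.08 for shDNMT1#2 minus shDNMT1#1 (adjusted p = 2.3e-05). JUN went the other way, at 0.68 for shHDAC3#2 minus shHDAC3#1 (adjusted p = 0.016) and 0.66 for shDNMT1#2 minus shDNMT1#1 (adjusted p = 0.022). The shLuc arrays of JUN lay far apart, at 9.13 and 8.11, and both shDNMT1#2 arrays (8.37 and 8.36) lay between them.

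**Figure D4:**
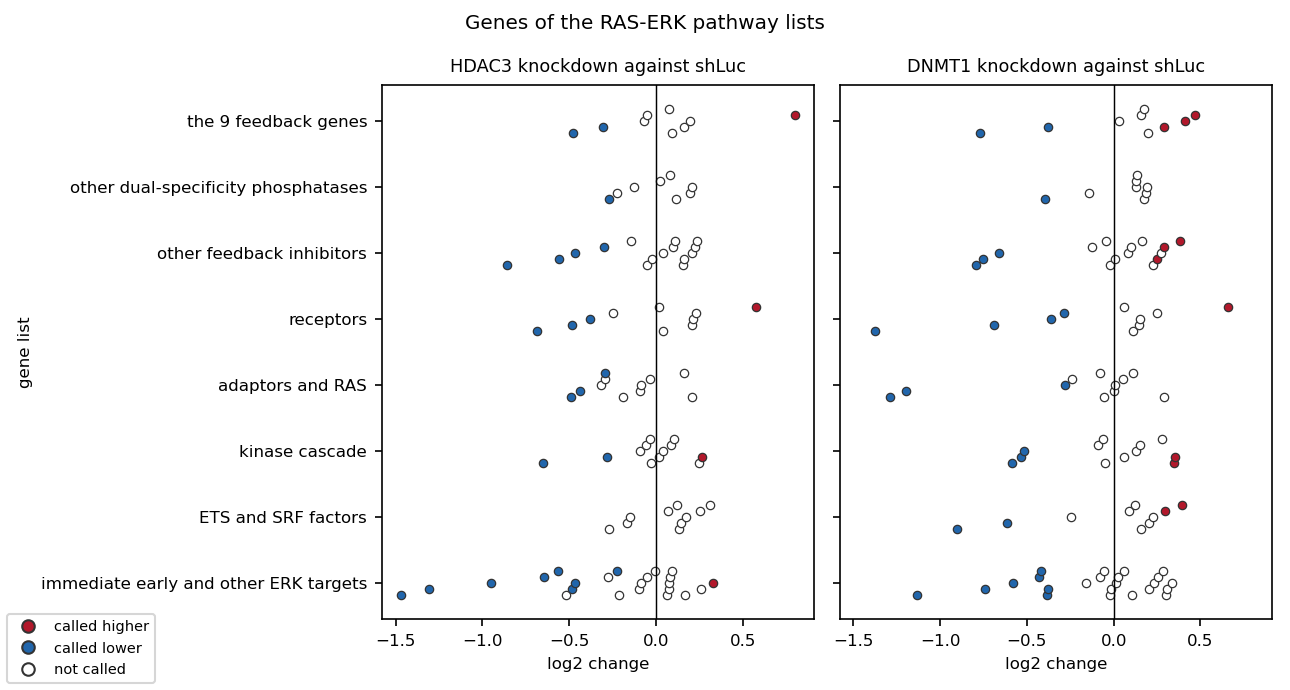
Log2 change of the 9 genes and of the 89 measured genes in 7 other lists of the RAS-ERK pathway, for HDAC3 knockdown against shLuc (left) and DNMT1 knockdown against shLuc (right). Each point is 1 gene, filled where limma called it, though the HDAC3 value of DUSP5 is a description with no test. The 9 genes spread to both sides of 0, from -0.48 to 0.80 on the left and from -0.77 to 0.47 on the right.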

How the data were processed

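Total RNA of 10 MM.1S samples was hybridised to Affymetrix 3' arrays. The table deposited by the authors holds log2 signals for 54675 probe sets, and the submitters' processing notes name RMA. Neither its version nor whether it was run once on all arrays is stated in the sources used here. Groups follow the sample titles. Probe sets were named from the platform annotation (41091 had a single symbol and 1801 several, which name no gene), and 41037 of the single-symbol ones matched RefSeq by gene ID. Each gene was represented by its brightest probe set by the mean of the 10 arrays, and 10523 of the 19775 genes had more than 1.

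For testing, limma 3.58.1 (R 4.3.3) was fitted as 1 model of the 5 groups with 5 residual degrees of freedom and a variance trend, two-sided, with Benjamini-Hochberg adjustment over all genes. The 9 genes and the lists were chosen with earlier results of these data known, so no test of them is independent evidence, and no p was adjusted over the list. A fit of every probe set gave the values of the dimmer probe sets. All 9 genes, HDAC3, DNMT1 and MAPK3 were named, plus up to 3 called genes with the largest change in each pathway list and comparison, and the 2 genes most like each of the 9. Listed genes without a single-symbol probe set were not analysed here. The fit was tested on simulated data with independent noise in each array. That test does not cover arrays of a hairpin that vary together. Replicate arrays differed by a root mean square of 0.16 to 0.21 on the log2 scale. The number of arrays limits the precision. Alternatives covered the normalization, array weights, the array SD as a covariate, the variance model, the arrays in the fit, dim and cross-hybridizing probe sets, the mean of probe sets, the replicate number and the hairpin as blocks, and each array left out in turn.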

Additional observations from a re-analysis of the deposited data

Results flagged for a closer look

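Hairpins of 1 target, or the 2 knockdowns, differed for DUSP4, DUSP6 and SPRED1 by a test of the difference itself in the same limma fit, and the values of DUSP5 are listed beside them with no test. DNMT1 knockdown minus HDAC3 knockdown was 0.46 for DUSP4 and -0.33 for DUSP5 on the log2 scale. For shHDAC3#2 minus shHDAC3#1 the difference was -0.75 for DUSP4, 0.63 for DUSP5, -0.61 for DUSP6 and -0.80 for SPRED1. For shDNMT1#2 minus shDNMT1#1 it was -0.93 for DUSP6 and -2.36 for SPRED1. DUSP5 was picked for its level in HDAC3 knockdown, and both of its differences involve those arrays. In the HDAC3 and DNMT1 knockdowns, each a group of 4 arrays, no gene had an array set apart from the other 3 by Dixon's criterion. Each group pools 2 hairpins, and a difference between them widens the range, so the criterion could hardly flag an array there.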

How the results depend on the processing

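Over the alternatives fixed at the start, 866 of 907 values of single genes kept their side of the threshold, 30 lost the call, 8 gained it and 3 that were called in at least 1 setting changed sign. Of the 866, 33 were called in neither setting and turned sign, 13 of them with the array SD as a covariate (values from -0.35 to 0.43). With the array SD as a covariate, calls among the 9 genes fell from 3 to 1 after HDAC3 knockdown and from 5 to 2 after DNMT1 knockdown. The 1 left after HDAC3 knockdown was DUSP5, whose value there is given with no test. The 2 left after DNMT1 knockdown were DUSP4 and DUSP5. In that fit 0.587% and 0.511% of all genes were called, in the same order. With the hairpin as a random block (consensus correlation 0.35) limma called 0 after HDAC3 knockdown, 0 after DNMT1 knockdown and 0 between the knockdowns. Of all genes, 0.369%, 0.157% and 0.0303% were called, in the same order. The 3 called values that changed sign were SPRED2 after HDAC3 knockdown with the mean of probe sets (-0.41), and SPRED1 with the array SD as a covariate (0.33 after HDAC3 knockdown and 0.094 after DNMT1 knockdown). In a fit of every probe set, chosen after seeing the data, 212458_at of SPRED2 (-1.41 after HDAC3 knockdown and -0.68 after DNMT1 knockdown) and 244439_at of SPRED1 (0.048 after DNMT1 knockdown) had the opposite sign to the brightest probe set. The cause was not tested. With shDNMT1#1 alone, also chosen after seeing the data, 2 of the 9 genes were called, where 8.15% of all genes were. Leaving out 1 array at a time left 1 array in its group. Calls were lost or gained in some of these fits, as given for the genes above. Without shLuc replicate 1 the change after HDAC3 knockdown was -0.22 for DUSP6 and -0.29 for SPRED1. After DNMT1 knockdown it was -0.30 for DUSP6 and -0.58 for SPRED1. Fewer of all genes were called in that fit too. The replicate numbers only name the arrays: deviations of same-numbered arrays correlated above 0.1 in 2 of 10 pairs of groups (from -0.34 to 0.27). With the replicate block the counts of calls were 3, 5, 2, 4 and 2, as without it. Of all genes, 17.3%, 18.1%, 8.61%, 11.6% and 10.7% were called with that block, in the same order. Of the counts of calls given here, those above 0 that involve the HDAC3 arrays include DUSP5. Where 1 call is given after HDAC3 knockdown, that call is DUSP5. Its values there are a description with no test. Signals of DUSP10, SPRY2 and EGR1 lay below the median probe set.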

Other observations

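Some other genes of the pathway lists, chosen after their values were seen, also differed between hairpins of 1 target. DUSP1, an inducible nuclear phosphatase of p38, JNK and ERK, was higher with shHDAC3#2 than with shHDAC3#1 by 1.05 ± 0.19 on the log2 scale (limma adjusted p = 0.00044), and IL6R, the ligand-binding chain of the interleukin-6 receptor, by 1.50 ± 0.11 (adjusted p = 3e-09). MYC, a target of many growth signals, was higher with shHDAC3#2 by 0.80 ± 0.09 (adjusted p = 8.8e-07). With shDNMT1#2 minus shDNMT1#1, the ETS factor ELK4 was at -1.91 ± 0.11 (adjusted p = 1.5e-10) and the RAS relative RRAS2 at -1.95 ± 0.14 (adjusted p = 2.3e-09), beside -2.36 for SPRED1. Of the 89 genes, 21 were called higher and 4 lower between shHDAC3#2 and shHDAC3#1, and 8 higher and 17 lower between shDNMT1#2 and shDNMT1#1 (28.1% in each, where 12.6% and 12.0% of all genes were called).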
